A study of Mus musculus with 16 samples.

Results

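The genes described are 10 linked to nitric oxide and cGMP signals. They include the nitric oxide synthases Nos1 and Nos3, the synthase adaptor Nos1ap and the caveolins Cav1, Cav2 and Cav3. The others are the cGMP-dependent kinase Prkg1, its substrate Vasp, and Ddah1 and Ddah2, named as enzymes that break down an inhibitor of the synthases. All 10 were chosen by symbol, and each matched 1 of the 35682 genes in the table of counts. RNA was taken from ventricular myocytes of 8 wild-type (WT) mice and 8 littermates with a transgene, labelled B3AR-Tg after the beta-3 receptor for adrenaline and noradrenaline. All 16 animals had undergone transverse aortic constriction (TAC), a narrowing of the aorta that loads the left ventricle, 9 weeks before, so no unoperated animal serves as a reference for either genotype. Myocytes were freed by Langendorff perfusion and kept on plates for 1 hour before RNA was extracted. The promoter that drives the transgene, the number of founder lines, and the age and sex of the animals were not given in the sources used here.

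Nitric oxide is made from arginine by the synthases, activates soluble guanylyl cyclase and so raises cGMP, which activates the kinase encoded by Prkg1. In heart muscle the beta-3 adrenergic receptor is known for signalling through nitric oxide and cGMP, in contrast to the cAMP response of the beta-1 receptor. Caveolae are flask-shaped pits of the plasma membrane built from caveolins, and they hold receptors and nitric oxide synthases close together. Cav3 is the muscle caveolin, while Cav1, Cav2 and Nos3 are abundant in endothelial cells, which line the vessels between myocytes.

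None of the 10 genes passed the test between genotypes. Nos1 had too few counts to be tested, and 0 of the other 9 passed at an adjusted p under 0.05 in edgeR's quasi-likelihood test, against 4.91% of all 10945 tested genes (537 genes, 222 higher and 315 lower in B3AR-Tg). The 9 tested genes had log2 fold changes (B3AR-Tg minus WT) from −0.60 to −0.11, all below 0, with a median of −0.40. The median over all tested genes was 0.01, and 5350 of them were below 0. Unadjusted p-values under 0.05 were found for 5 of the 9 (Cav2, Cav3, Ddah1, Ddah2 and Vasp), as for 2117 of all tested genes. Of the same 9 genes, DESeq2 called 0 (804 over all genes) and limma voom called 1, Ddah1 (706 over all genes). No member had groups that did not overlap, which was the case for 0.448% of tested genes.

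**Figure D1:**
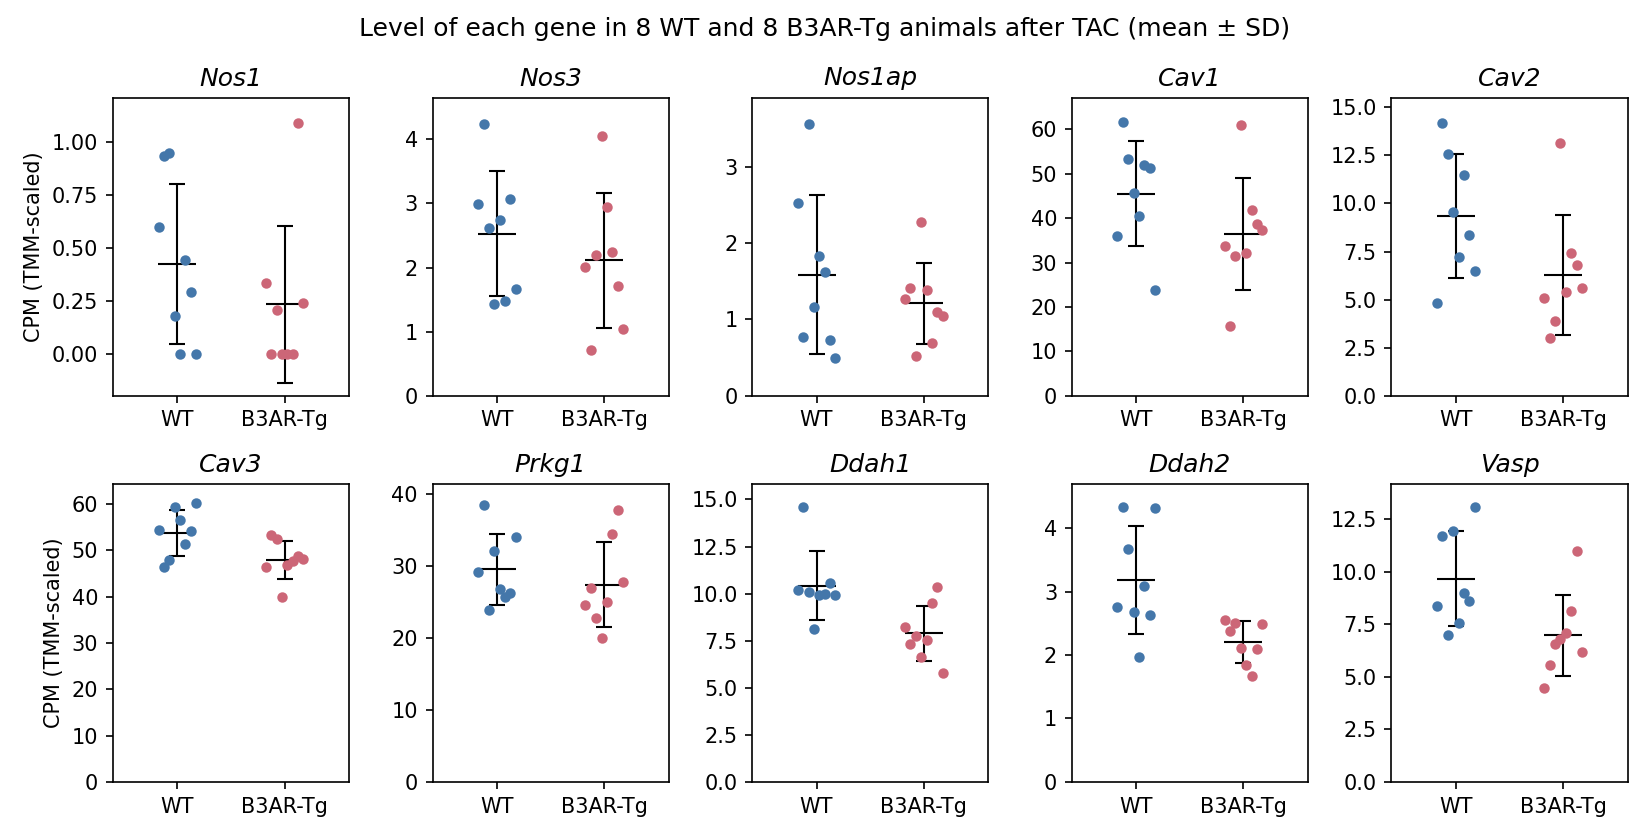
Level of each of the 10 genes in CPM (counts relative to the total of the library, linear axis) in 8 WT (blue) and 8 B3AR-Tg (red) animals after TAC, with the mean and SD. The groups overlapped for every gene, and for Cav3 and Ddah2 all 8 B3AR-Tg animals lay under the WT median; the lower SD bar of Nos1 runs below 0 because many of its libraries held few or no counts.

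Libraries held between 5985335 counts (B3AR-Tg replicate 4) and 14365864 (B3AR-Tg replicate 1). Levels are given as CPM scaled by TMM factors, and 3 counts, taken as the floor of detection, came to 0.201 to 0.487 CPM. The label of the cells was checked against markers. The 10 myocyte markers (Myh6, Ttn, Ryr2 and others) summed to between 67791 and 112159 CPM in every animal. The 14 endothelial markers (Pecam1, Kdr and others) summed to 137 to 198 CPM in WT and to 62.3 to 211 CPM in B3AR-Tg, so some endothelial RNA was present in each preparation. Mouse Adrb3, the gene of the receptor after which the line is named, held 0 to 4 counts in WT and 0 to 3 in B3AR-Tg, at the floor, and so does not check the genotype labels. The Adrb1 log2 fold change was 0.06 (95% interval −0.33 to 0.46).

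Cav1 and Cav2 are neighbouring genes on mouse chromosome 6 whose levels varied together over the animals, while Cav3 ran opposite to both (Pearson r of 0.87, −0.78 and −0.80, described with the other pairs of members). Their sequences before the transcription start are therefore set out for comparison. Each is the 250 bases upstream of a start listed by RefSeq (build GRCm38.p6, plus strand, 5′ to 3′). Capitals mark matches on either strand to a GC box (GGGCGG) or to the E-box form CAGCTG, 6-base motifs with no overlap here. Cav1 has 2 listed starts and the first is shown; the window before the second held 0 matches to either motif.
Cav1 promoter, chr6:17306085-17306334: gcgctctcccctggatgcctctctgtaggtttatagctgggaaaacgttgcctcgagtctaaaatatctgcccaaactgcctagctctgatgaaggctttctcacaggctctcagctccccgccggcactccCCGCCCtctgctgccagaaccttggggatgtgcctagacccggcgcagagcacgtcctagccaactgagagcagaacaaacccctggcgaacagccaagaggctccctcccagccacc
Cav2 promoter, chr6:17280935-17281184: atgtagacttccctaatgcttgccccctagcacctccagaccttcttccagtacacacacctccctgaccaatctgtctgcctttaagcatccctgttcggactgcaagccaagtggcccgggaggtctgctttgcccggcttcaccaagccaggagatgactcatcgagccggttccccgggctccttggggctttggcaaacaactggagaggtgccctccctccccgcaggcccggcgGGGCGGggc
Cav3 promoter, chr6:112459255-112459504: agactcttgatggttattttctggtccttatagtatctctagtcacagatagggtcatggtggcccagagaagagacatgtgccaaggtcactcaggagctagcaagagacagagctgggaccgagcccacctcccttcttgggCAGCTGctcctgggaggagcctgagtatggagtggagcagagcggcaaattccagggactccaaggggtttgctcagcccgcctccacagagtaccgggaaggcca
The Cav1 and Cav2 windows each held 1 GC box and 0 E-boxes of this form, whereas the Cav3 window held 1 such E-box and 0 GC boxes. Of 32851 listed promoters of the same length, 32.7% held the GC box and 13% the E-box. The M-CAT motif (CATTCC, in 12.6% of promoters) was in 0 of the 3. These matches describe letters only. The GC content was 59.6% for Cav1, 62% for Cav2 and 56% for Cav3.

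Cav3 was the most abundant member per length. Divided by the length of its exons in GENCODE M21, the mean WT level was 46.5 CPM per kb for Cav3 and 14.7 CPM per kb for Cav1, and the ranges over the 8 WT animals did not overlap. Vasp (4.36 CPM per kb), Prkg1 (3.99), Cav2 (2.80), Ddah1 (2.75) and Ddah2 (2.36) followed, and the WT range of each overlapped that of the next. Nos3 (0.612 CPM per kb) and Nos1ap (0.524) lay below them with ranges that overlapped each other. Nos1 was last, at 0.0415 CPM per kb.

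Both synthases and the adaptor Nos1ap were expressed at low levels. Nos1 (ENSMUSG00000029361), the neuronal-type synthase, which is also found at the sarcoplasmic reticulum of myocytes, held 31 counts over all WT libraries and 24 over all B3AR-Tg libraries. WT replicates 1 to 8 held 5, 11, 8, 2, 0, 3, 2 and 0 counts, and B3AR-Tg replicates 1 to 8 held 5, 0, 2, 0, 0, 0, 14 and 3. More than 3 counts were reached in 3 WT and 2 B3AR-Tg libraries, and the highest value of all, 1.09 CPM, was in B3AR-Tg replicate 7. An exact permutation test over the 12870 splits of the animals gave p = 0.324 (two-sided) for its CPM (WT mean 0.424, B3AR-Tg mean 0.234), so a difference in Nos1 was not detectable at this depth.

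Nos3 (ENSMUSG00000028978), the endothelial-type synthase, had a lowest, median and highest level of 1.43, 2.68 and 4.25 CPM in WT and 0.706, 2.10 and 4.06 CPM in B3AR-Tg. The groups overlapped over most of their range, with B3AR-Tg replicate 4 the highest of its group and replicate 2 the lowest. Its log2 fold change was −0.30 (standard error 0.31, edgeR adjusted p = 0.632) with a 95% interval from −0.94 to 0.34. It was −0.14 without WT replicate 2, −0.17 without B3AR-Tg replicate 2, −0.19 without B3AR-Tg replicate 8 and −0.47 without B3AR-Tg replicate 4. Counts of 8 to 50 per library lie behind these values. Nos1ap (ENSMUSG00000038473), an adaptor that binds the neuronal synthase and is known for its link to the QT interval, averaged 1.58 ± 1.04 CPM in WT animals and 1.21 ± 0.534 CPM in B3AR-Tg animals (SD, n = 8 each). WT replicate 3 was highest at 3.56 CPM and WT replicate 8 lowest at 0.491 CPM, so the WT animals alone spanned the B3AR-Tg range. The log2 fold change was −0.40 with an interval from −1.17 to 0.37 (edgeR adjusted p = 0.595). Without WT replicate 3 it was −0.11.

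The caveolins differed from each other in their spread. Cav3 (ENSMUSG00000062694), which forms caveolae in muscle, had the smallest spread of any member, a coefficient of variation of 9.29% in WT and 8.49% in B3AR-Tg. Its lowest, median and highest levels were 46.5, 54.3 and 60.2 CPM in WT and 40.0, 47.9 and 53.2 CPM in B3AR-Tg. All 8 B3AR-Tg animals lay below the WT median, and 1 lay below the lowest WT animal. The log2 fold change was −0.17 (standard error 0.08, edgeR adjusted p = 0.238, 95% interval −0.32 to −0.01).

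Cav1 (ENSMUSG00000007655), a main coat protein of endothelial and smooth muscle caveolae, averaged 45.5 ± 11.8 CPM in WT animals and 36.5 ± 12.7 CPM in B3AR-Tg animals. The lowest, median and highest WT animals were at 23.9, 48.4 and 61.6 CPM, and the B3AR-Tg animals at 15.7, 35.5 and 61.1 CPM. Of the 8 B3AR-Tg animals 7 were below the WT median, while replicate 4 was close to the highest WT animal. The log2 fold change was −0.33 (standard error 0.20, edgeR adjusted p = 0.397), and −0.21 without B3AR-Tg replicate 2.

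Cav2 (ENSMUSG00000000058), which assembles with Cav1, had the most negative log2 fold change of the members, −0.60 (standard error 0.25, edgeR adjusted p = 0.192, 95% interval −1.13 to −0.07). Its lowest, median and highest levels were 4.796, 8.95 and 14.2 CPM in WT and 3.00, 5.52 and 13.2 CPM in B3AR-Tg. The highest B3AR-Tg value was again replicate 4, and the next was 7.44 CPM. Without that library Cav2 passed, at a log2 fold change of −0.81 (edgeR adjusted p = 0.0419), whereas Cav1 did not (−0.46, adjusted p = 0.171). Without WT replicate 2, the highest WT animal, Cav2 was at −0.48 (edgeR adjusted p = 0.337).

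Prkg1 (ENSMUSG00000052920), the cGMP-dependent kinase, had a log2 fold change of −0.11 (standard error 0.13, edgeR adjusted p = 0.688). The 95% interval from −0.37 to 0.15 leaves room for a small difference in either direction. Without WT replicate 2, B3AR-Tg replicate 4 or B3AR-Tg replicate 7 it was −0.04, −0.06 and −0.19. WT animals were at 23.8, 28.03 and 38.5 CPM (lowest, median and highest) and B3AR-Tg animals at 19.98, 26.0 and 37.8 CPM. Vasp (ENSMUSG00000030403), an actin-binding protein whose phosphorylation by this kinase is a common readout of cGMP signalling, averaged 9.67 ± 2.26 CPM in WT animals and 6.97 ± 1.94 CPM in B3AR-Tg animals. Its lowest, median and highest levels were 7.00, 8.80 and 13.1 CPM in WT and 4.49, 6.70 and 10.98 CPM in B3AR-Tg. Below the lowest WT animal lay 5 of the 8 B3AR-Tg animals, but replicate 7 was at 10.98 CPM, and the log2 fold change of −0.48 (standard error 0.17) had an edgeR adjusted p of 0.116. Without B3AR-Tg replicate 7 it was −0.61 and passed (adjusted p = 0.0301). Without WT replicate 2 it was −0.43 and did not (edgeR adjusted p = 0.198).

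Ddah1 (ENSMUSG00000028194) and Ddah2 (ENSMUSG00000007039) are named for the hydrolysis of asymmetric dimethylarginine, which competes with arginine at the synthases. Ddah1 had the smallest p-value of the 10 genes. Its lowest, median and highest levels were 8.12, 10.04 and 14.6 CPM in WT and 5.78, 7.63 and 10.4 CPM in B3AR-Tg. The WT animals were close together, between 9.92 and 10.5 CPM except for replicates 2 and 4, and 5 B3AR-Tg animals lay below all of them. The log2 fold change was −0.40 (standard error 0.13, edgeR adjusted p = 0.0903, 95% interval −0.68 to −0.12). It passed without B3AR-Tg replicate 7 (−0.47, edgeR adjusted p = 0.0442) and with limma voom (−0.45, adjusted p = 0.0495). Without WT replicate 2, the highest WT animal, the log2 fold change was −0.31 (edgeR adjusted p = 0.195). With libraries scaled by their totals only it was −0.33 (edgeR adjusted p = 0.214).

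Ddah2 was lower in level, with 13 to 51 counts per library. It averaged 3.18 ± 0.854 CPM in WT animals and 2.20 ± 0.331 CPM in B3AR-Tg animals, and the WT median exceeded all 8 B3AR-Tg animals. The log2 fold change was −0.53 (standard error 0.19, edgeR adjusted p = 0.112, 95% interval −0.93 to −0.14). WT replicate 5, at 1.96 CPM, lay inside the B3AR-Tg range of 1.66 to 2.54 CPM.

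**Figure D2:**
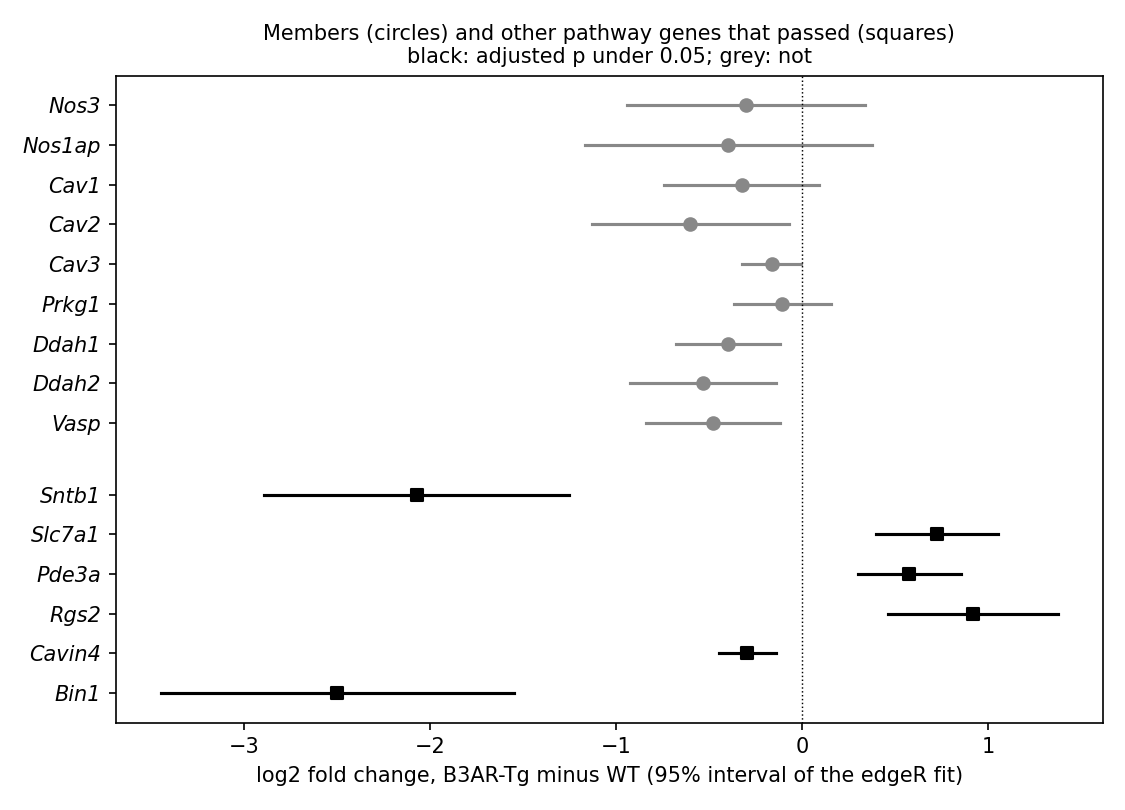
Log2 fold change (B3AR-Tg minus WT, horizontal axis) with its 95% interval for the 9 tested members (circles) and the 6 other pathway genes that passed at an adjusted p under 0.05 (squares). All 9 members lie between −0.60 and −0.11 and are drawn in grey because none passed; Bin1 and Sntb1 lie below −2.

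Endothelial marker levels differed between the genotypes. All 14 endothelial markers had a log2 fold change below 0 (median −0.61) and 4 of them fell at an adjusted p under 0.05 (Pecam1, Flt1, Emcn and Esam). Their summed level was lower than in any WT animal in 7 of 8 B3AR-Tg animals, and the exception was replicate 4, at 211 CPM. Fibroblast markers had 9 of 9 tested genes below 0, of which 4 fell, and their sum was 77.7 to 192 CPM in WT and 30.9 to 108 CPM in B3AR-Tg. The 4 tested leukocyte markers were below 0 with none passing. Mural cell markers summed to a median of 98.9 CPM in WT (90.6 to 165) and 105 CPM in B3AR-Tg (48.6 to 145), and 0 of 7 tested passed. Among them Acta2 had a log2 fold change of 0.42 and the other 6 were below 0. In these bulk samples fewer cells of a type and less RNA per cell cannot be told apart. With the endothelial level as a covariate, the fitted log2 fold changes of Nos3, Cav1 and Cav2 were 0.26, 0.23 and 0.16, while that of Cav3 was −0.31 (edgeR adjusted p from 0.173 to 0.790). That of Vasp was −0.26 (adjusted p = 0.656). The part of endothelial RNA in the levels of these members was not tested further.

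Within the B3AR-Tg animals, the endothelial level (mean log2 CPM of the 14 markers) was between 2.51 and 2.73 in 6 animals, 1.84 in replicate 2 and 3.47 in replicate 4. Cav1 had a Pearson r of 0.94 with it (exact permutation p = 0.0140) and a Spearman rho of 0.81 (exact p = 0.0218) over 8 animals. For Cav2, r was 0.91 (exact p = 0.00526) and rho 0.69 (exact p = 0.0694). Cav3 had the opposite sign, with r = −0.91 (exact p = 0.00357) and rho = −0.69 (exact p = 0.0694). Nos3 had r = 0.81 (exact p = 0.0221) and rho = 0.38 (exact p = 0.360). Adjusted over all 10945 tested genes, none of these passed (adjusted p from 0.391 to 0.515 for r). Without replicates 2 and 4, r was 0.39 for Cav1, 0.40 for Cav2, −0.46 for Cav3 and −0.10 for Nos3, so the relations rested on those 2 animals.

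In WT the endothelial level fell into separate clusters, with replicates 1 and 5 at 2.86 and the other 6 between 3.18 and 3.50. Within those 6, Cav1 had r = 0.21 (exact permutation p = 0.588) and rho = −0.03 (exact p = 1), and Cav2 had r = 0.30 (exact p = 0.579) and rho = 0.09 (exact p = 0.919). Prkg1 had the largest coefficient there, r = 0.87 (exact p = 0.0125) and rho = 0.89 (exact p = 0.0333),, with an adjusted p over all tested genes of 0.734. Of 27 relations of members with marker levels, 0 passed over all tested genes and 6 had an unadjusted exact p under 0.05 for r. The share of all tested genes with such a p was not counted. Over all tested genes the 95th percentile of r was 0.73 with the endothelial level in WT. In B3AR-Tg it was 0.70 with the endothelial level and 0.60 with the load level. With 6 or 8 animals, the smallest possible exact p is too large for a single gene to pass this adjustment. That none passed therefore does not show that relations are absent, least of all in the 6 WT animals.

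**Figure D3:**
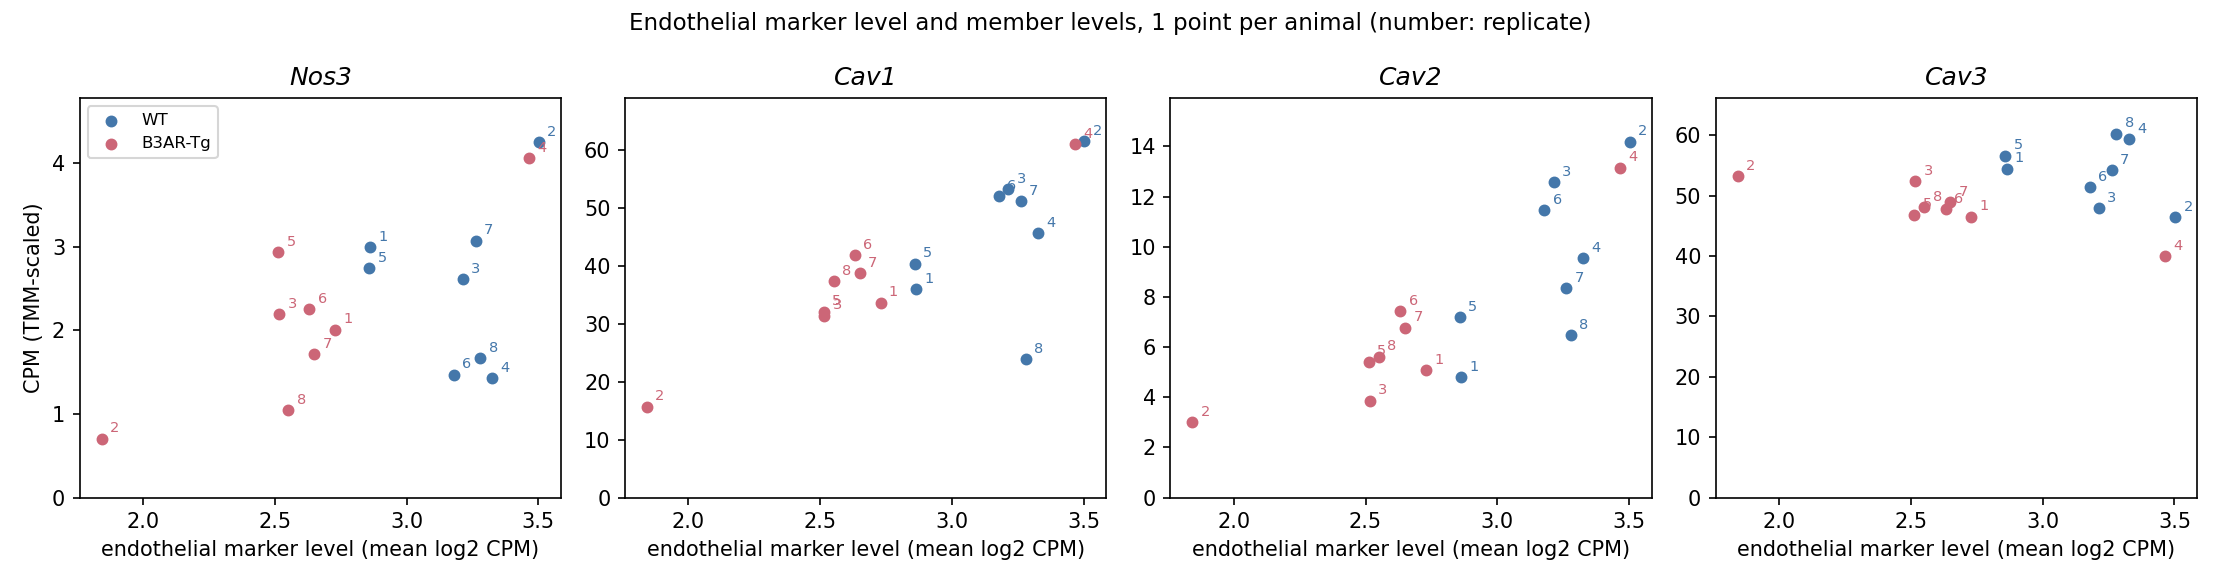
Level of Nos3, Cav1, Cav2 and Cav3 (vertical axes, CPM) against the endothelial marker level (horizontal axes, mean log2 CPM of 14 markers), with 1 point per animal and the replicate number beside it (WT blue, B3AR-Tg red). B3AR-Tg replicate 4 lies with the WT animals at an endothelial level of 3.47, with the highest Cav1 and Cav2 and the lowest Cav3 of its group, and replicate 2 lies at the other end.

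Some pairs of members also varied together inside the genotypes. As a description, deviations of log2 CPM from the genotype mean over all 16 animals, which share depth and cell makeup within a library, gave a Pearson r of 0.87 between Cav1 and Cav2, −0.78 between Cav1 and Cav3 and −0.80 between Cav2 and Cav3. Without B3AR-Tg replicates 2 and 4 these were 0.78, −0.71 and −0.67 over 14 animals. Prkg1 and Vasp had r = 0.72, and 0.82 without those animals. Nos3 and Cav1 had r = 0.62, and 0.22 without them. Among all pairs of tested members, those given here had the highest or the most negative r over 16 animals. Other pairs lay between, such as Cav1 and Vasp (0.08) and Nos1ap and Vasp (−0.52). The r of pairs of other genes was not summarised for comparison.

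By the same measure over 16 animals, the 3 tested genes most like Cav1 were Itpkb (r = 0.93), Fli1 (0.91) and Kdr (0.90). Kdr is one of the 14 endothelial markers used here, and Fli1 encodes a transcription factor of endothelial and blood cells. Those most like Nos3 were Ltbp4 (0.84), Map3k12 (0.80) and Gusb (0.79). Smpx, which encodes a small muscle protein, was most like Cav3 (0.86), followed by 6430571L13Rik (0.85) and Poldip2 (0.83). For Prkg1 they were Clip1 (0.86), Serpinb6b (0.86) and Lix1l (0.85). All of these were picked as the highest r over all tested genes. The r values of the nearest genes were not computed again without B3AR-Tg replicates 2 and 4. Those animals were the lowest and highest of their group for both Cav1 and Kdr.

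The load markers Nppa, Nppb, Myh7 and Acta1, genes of the fetal and stretch response, all fell in B3AR-Tg, and their mean log2 CPM was 8.99 to 10.999 in WT and 6.82 to 9.10 in B3AR-Tg. The WT animals were in separate clusters, 5 at 8.99 to 9.80 and replicates 2, 4 and 8 at 10.8 to 10.999, so no coefficient is given for them. In those 3 animals Prkg1 was at 38.5, 32.1 and 34.0 CPM, and in the other 5 WT animals it was between 23.8 and 29.3 CPM. Vasp was at 11.7, 12.0 and 13.1 CPM in the same 3 and between 7.00 and 8.97 CPM in the others. Ddah1 (14.6, 8.12 and 9.92 CPM in those 3) and Ddah2 (4.33, 2.68 and 4.32 CPM) did not separate from the other 5. The split was chosen after the levels were seen, and the share of all tested genes that separate in this way was not counted. Within B3AR-Tg, r with the load level was 0.51 for Prkg1 (exact permutation p = 0.197) and 0.59 for Vasp (exact permutation p = 0.124). Without replicates 7 and 8 these were 0.18 and −0.07. Among B3AR-Tg animals, Ddah1 had r = 0.81 with the load level (exact permutation p = 0.0163, n = 8) and rho = 0.74 (exact p = 0.0458), with an adjusted p over all tested genes of 1.00. Without replicates 7 and 8, r was 0.30, so this relation rested on them. B3AR-Tg replicate 7 had the highest load level of its group and the highest Nos1, Prkg1, Ddah1 and Vasp.

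**Figure D4:**
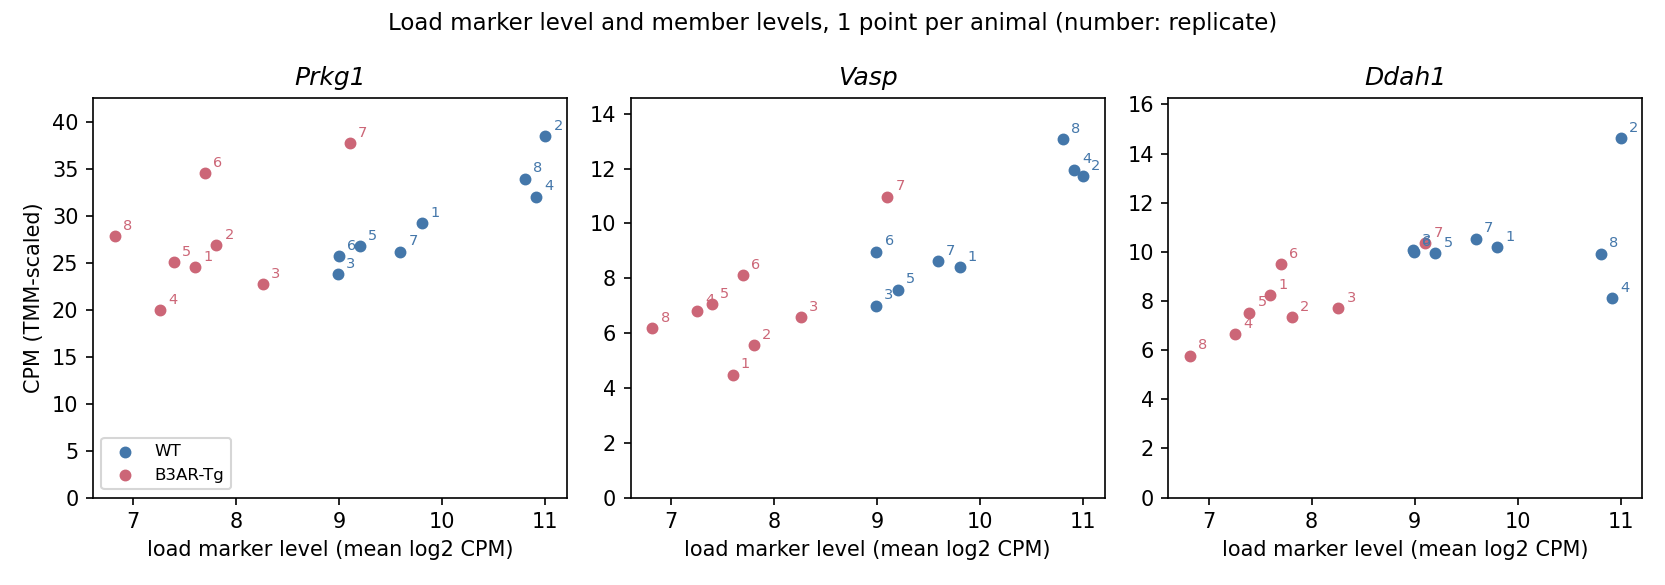
Level of Prkg1, Vasp and Ddah1 (vertical axes, CPM) against the load marker level (horizontal axes, mean log2 CPM of Nppa, Nppb, Myh7 and Acta1), with 1 point per animal and the replicate number beside it (WT blue, B3AR-Tg red). WT replicates 2, 4 and 8 lie apart at the highest load levels with the 3 highest WT values of Prkg1 and of Vasp, but not of Ddah1. B3AR-Tg replicate 7 lies at the highest load level of its group.

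The other genes of the pathway were described from a list of 73, of which 57 were tested. Of these, 3 rose and 3 fell at an adjusted p under 0.05 (2.03% and 2.88% of all tested genes did), and the median log2 fold change was −0.10. Among partners of the synthases, 1 of 12 tested genes fell and 0 rose. It was Sntb1, a syntrophin that links signalling proteins to the dystrophin complex, which had a lowest, median and highest level of 0.949, 2.93 and 8.84 CPM in WT and 0.241, 0.895 and 1.67 CPM in B3AR-Tg. All 8 B3AR-Tg animals were below the WT median, and the log2 fold change was −2.07 (standard error 0.39, edgeR adjusted p = 0.00590). Hsp90ab1, a chaperone of the synthases, did not pass (log2 fold change 0.05, edgeR adjusted p = 0.829).

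In the caveola coat and neck group, 2 of 14 tested genes fell and 0 rose. Bin1, which bends the membrane at transverse tubules, had a lowest, median and highest level of 0.830, 2.13 and 5.80 CPM in WT and 0, 0.522 and 1.01 CPM in B3AR-Tg, where single libraries held 0 to 13 counts. Below the lowest WT animal lay 7 of 8 B3AR-Tg animals, and the log2 fold change was −2.50 (standard error 0.46, edgeR adjusted p = 0.00507). Cavin4, the muscle cavin of the caveolar coat, was far more abundant. It fell from 130 ± 10.7 to 106 ± 9.33 CPM (SD, n = 8 each). The log2 fold change was −0.30 (standard error 0.07, edgeR adjusted p = 0.0232). The more widely expressed coat proteins Cavin1 (−0.03), Cavin2 (−0.10) and Cavin3 (−0.11) did not pass (adjusted p from 0.659 to 0.937).

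Cofactor and arginine supply, cGMP formation and breakdown, and kinase targets each had 1 gene that rose. Slc7a1, the cationic amino acid transporter that brings in arginine, was the one of 12 tested genes of cofactor and arginine supply that passed. It was at 18.8, 27.8 and 40.5 CPM in WT (lowest, median and highest) and 26.8, 46.9 and 60.8 CPM in B3AR-Tg. Its log2 fold change was 0.72 (standard error 0.16, edgeR adjusted p = 0.0131), and 6 B3AR-Tg animals were above every WT animal. Pde3a, a cAMP phosphodiesterase that cGMP inhibits, was the one of 8 tested genes of cGMP formation and breakdown. It rose from 121 ± 17.2 to 180 ± 40.5 CPM (0.57, adjusted p = 0.0169), although B3AR-Tg replicate 3, at 97.1 CPM, was below every WT animal. Rgs2, a brake on Gq signalling that the cGMP kinase phosphorylates, was the one of 10 tested kinase targets. It rose from 12.6 ± 4.26 to 23.7 ± 9.29 CPM (0.92, adjusted p = 0.0211), and all 8 B3AR-Tg animals were above the WT median.

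With the endothelial or the other-cell level as a covariate none of these 6 genes passed (edgeR), although all 6 kept their direction. Over all genes, only 15 passed with the endothelial level and 19 with the other-cell level. Unadjusted p-values under 0.05 were found for 9 of the tested pathway genes in each fit, and for 1506 and 1427 of all genes. With the endothelial level the log2 fold changes were 0.98 for Slc7a1, 0.64 for Pde3a, 0.74 for Rgs2, −0.30 for Cavin4, −1.79 for Sntb1 and −1.75 for Bin1. Cavin4 had an adjusted p of 0.111 when libraries were scaled by their totals only, 0.0625 with no low-count filter, and 0.0532, 0.0579 and 0.0569 without WT replicate 4, B3AR-Tg replicate 5 or B3AR-Tg replicate 8.

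**Figure D5:**
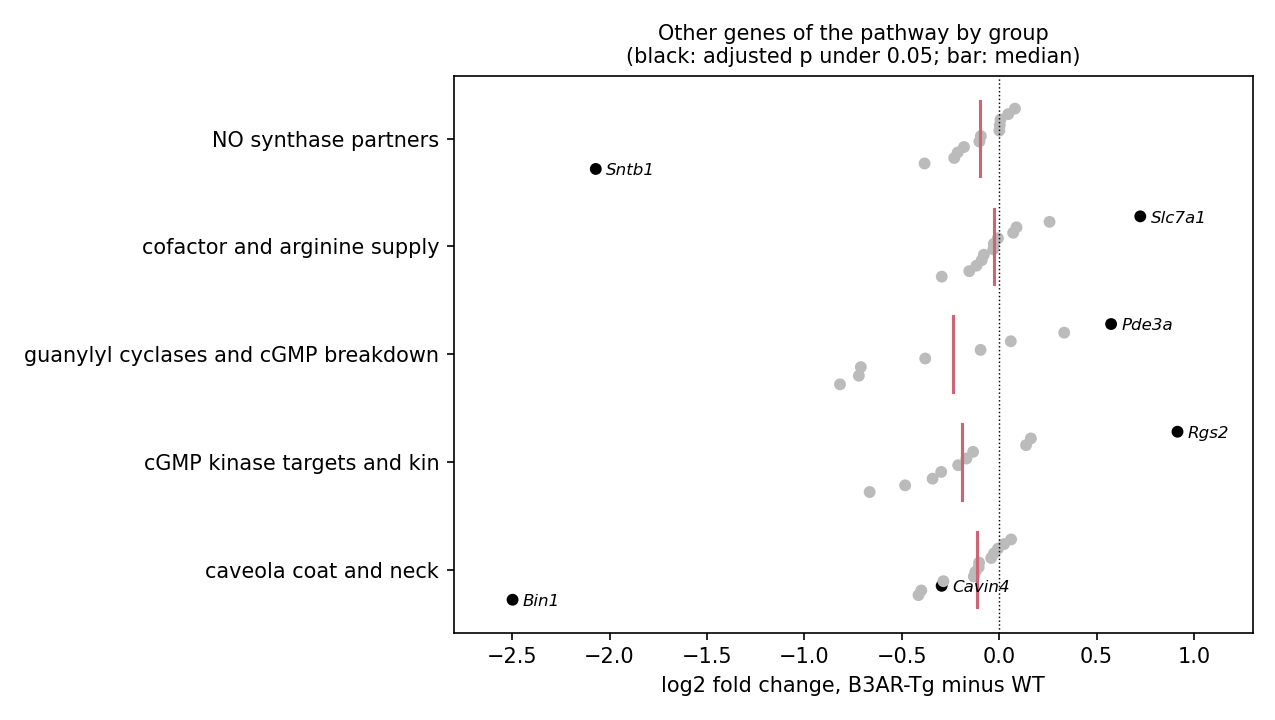
Log2 fold change (B3AR-Tg minus WT, horizontal axis) of the tested genes of the pathway list in 5 groups (the receptors, with only Adrb1 tested, are not drawn), with genes that passed at an adjusted p under 0.05 in black and the median of each group as a bar. Slc7a1, Pde3a and Rgs2 lie above 0 and Sntb1, Bin1 and Cavin4 below it, and the medians of the groups drawn lie between −0.24 and −0.03.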

How the data were processed

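Ventricular myocytes of 16 mice were profiled, 8 per genotype. Per the labels' protocols, stranded, ribosome-depleted libraries were made from 500 ng of total RNA and read from both ends. The authors deposited whole-number counts per gene with no normalization. The submitters' processing notes name Salmon and the build GRCm39 without a role. If Salmon made the counts they are rounded estimates, so reads shared by similar genes are split by a model. The annotation release and strand setting were not given in the sources used here. Columns were matched to animals by the name in each label.

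Counts were tested with edgeR 4.0.16 in R 4.3.3 (quasi-likelihood F test, TMM factors, filterByExpr with a minimum count of 10 and a minimum total of 15, genotype as the only term), with Benjamini-Hochberg adjustment over all 10945 tested genes and a threshold of 0.05. Standard errors and 95% intervals come from the F statistic. Tests are two-sided. The test was checked on simulated data. Log2 CPM used a prior count of 2, and the floor of 3 counts covers counting error only. Relations with marker levels used exact permutations (scipy 1.17.1, numpy 2.4.6), and a coefficient was withheld where a gap over 45% of the range split off 2 or more animals, a rule chosen after the levels were seen. Alternatives used DESeq2 1.42.0 and limma 3.58.1. Exon lengths come from GENCODE M21, on GRCm38. Promoters come from RefSeq, whose table lists a promoter for 9 of the 10 members. No gene coordinates on GRCm39 were used here.

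Named are the 10 members, genes of the pathway list past the threshold, Nos2, Adrb1 and Adrb3 in any case, and the 3 nearest genes to Nos3, Cav1, Cav3 and Prkg1. A few other list genes were named after their values were seen, and some list genes are not reported here. The members and gene lists were chosen with earlier results of these data known.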

Additional observations from a re-analysis of the deposited data

Results flagged for a closer look

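In each genotype, the 9 tested members and the 6 pathway genes that passed were searched for 1 animal standing far from the rest at either end, by Dixon's 95% critical value on log2(CPM + 0.1). This picked out 2 of 30 groups searched. By chance about 1 group in 20 is picked, or 1.5 here.

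Cav3 was low in B3AR-Tg replicate 4, at 40.0 CPM (246 counts) when its 7 group mates had 46.5 to 53.2 CPM, and the gap took 0.530 of the range. This library had the fewest counts of all and the highest endothelial level of its group.

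Ddah1 was high in WT replicate 2, at 14.6 CPM (172 counts) when the rest of the WT group had 8.12 to 10.5 CPM, and the gap took 0.558 of the range. The same animal had the highest WT values of Nos3, Cav1, Cav2, Prkg1 and Ddah2.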

How the results depend on the processing

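Log2 fold changes of Nos1ap, Cav3, Ddah1, Ddah2 and Vasp were below 0 in all 28 alternatives. The 28 include the thresholds of 0.1 and 0.01, which reuse the log2 fold changes of the main fit. They also include fits without a single animal, which share most animals, so the 28 are not independent. With the endothelial level as a covariate log2 fold changes were above 0 for Nos3 (0.26), Cav1 (0.23) and Cav2 (0.16), and with the level of all other-cell markers for Nos3 (0.32), Cav1 (0.18) and Prkg1 (0.0017). Both levels differ with genotype, so in these fits the marker level and the genotype cannot be fully told apart, and the cause was not tested. No member passed in the main analysis, and 1 did at a threshold of 0.1 and with limma voom (Ddah1 in both). Leaving out single animals gave 0 to 2 members, 272 to 675 genes in all and 5 to 7 pathway genes. The counts of all genes were 272 without WT replicate 4, 277 without B3AR-Tg replicate 5 and 345 without B3AR-Tg replicate 8. Over all genes 537 became 908 at a threshold of 0.1, 706 with limma voom, 109 at 0.01, 15 with the endothelial and 19 with the other-cell covariate. Library totals alone gave 346 higher of 511 called, against 222 of 537, and moved the median log2 fold change of all genes to 0.08. Pathway genes called were 2 at the threshold of 0.01 and 0 with either covariate (edgeR), where the 6 genes kept their direction.

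The replicate block left 230 genes in all, 0 members and 3 pathway genes (Sntb1, Rgs2 and Bin1), with adjusted p of 0.0633 for Slc7a1, 0.0914 for Pde3a and 0.0720 for Cavin4. The numbers in the titles belong to different animals, and deviations of same-numbered animals correlated at −0.22 to 0.09, so the block does not pair them; 0 of 8 correlated best with its own number.

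Without the 2 animals farthest from the median, coefficients changed sign for the endothelial level in B3AR-Tg with Nos3 (−0.10), Prkg1 (0.37), Ddah1 (0.53), Ddah2 (0.081) and Vasp (−0.15), and for the load level with Ddah2 (0.44) and Vasp (−0.067). None of them passed with all animals. Few counts per library limit the precision for Nos1, Nos1ap, Nos3 and Ddah2.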

Other observations

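Of the 73 other pathway genes, 16 were below the low-count filter and stay outside the tests. Their mean CPM was lower in B3AR-Tg for 14 and higher for 2, and the genes named below are all among the 14. The inducible synthase Nos2 held 56 counts over the WT libraries and 44 over the B3AR-Tg libraries, at 0.849 ± 0.509 and 0.476 ± 0.236 CPM (SD, n = 8 each, exact permutation p = 0.0864). Nostrin, which draws the endothelial synthase away from the membrane, averaged 1.42 ± 0.711 CPM in WT animals and 0.806 ± 0.601 CPM in B3AR-Tg animals. Pde5a, the cGMP-specific phosphodiesterase that sildenafil inhibits, was at 0.667 ± 0.544 and 0.451 ± 0.349 CPM. Ass1, which makes the precursor of arginine, was at 1.26 ± 0.612 and 0.735 ± 0.238 CPM. The second cGMP kinase gene, Prkg2, held 0 to 4 counts in WT libraries and 0 to 1 in B3AR-Tg libraries, near or under the floor.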
